A study of Arabidopsis thaliana with 16 samples.

Results

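The WRKY transcription factor family of Arabidopsis was followed through 2 genotoxic treatments of whole seedlings. The 57 genes described were chosen as a list of gene identifiers, out of 72 genes that the annotation names as WRKY. No threshold on a measured value set the list, but it was made with earlier results of these data known. An assembled locus stood for a gene when both lay on the same strand and shared exons over at least 50% of either one, and the locus with the longest overlap was taken. A locus of the zeocin table held 55 of the 57 genes, and a locus of the UV-C table likewise held 55. Across all genes, 21772 were held by a locus of either table. All 16 libraries came from wild-type Col-0 seedlings aged 15 days and grown in vitro. In the zeocin experiment, 5 libraries of seedlings given 200 microg/ml zeocin for 3 h were set against 5 mock libraries. In the UV-C experiment, 3 libraries of seedlings given 8 kJ/m2 of UV-C were set against 3 mock libraries of their own. How long after UV-C the seedlings were harvested is not stated in the labels. No label ties replicates to separate cultures either, so p-values here reflect the spread among libraries, which may be technical.

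WRKY proteins are plant transcription factors with a conserved DNA-binding domain built around a zinc finger. They bind the W-box, a short promoter element with the core TTGAC, which many WRKY genes carry themselves. Members fall into group I, with a pair of WRKY domains, group II, with a single domain and split into subgroups IIa to IIe, and group III, with another form of the zinc finger. In leaves and roots the family is best known for immunity: receptors on the cell surface act through MAP kinase cascades on WRKY proteins, and small VQ proteins bind some of them. Other members act in senescence, phosphate supply, drought, heat and development. Zeocin is a glycopeptide of the bleomycin family that breaks DNA on both strands, and UV-C links neighbouring pyrimidines within a strand.

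Levels are given as CPM, counts relative to the size of the library after scaling for its composition, and they are compared between groups only within an experiment, because each experiment was counted on its own assembly. Of the 57 genes, 52 had a zeocin locus to themselves, of which 50 passed the filter on low counts, and 54 had a UV-C locus to themselves, of which 50 passed it. WRKY34, known for its role in male gametophytes, had no locus in either table. WRKY41 had none in the zeocin table and WRKY24 none in the UV-C table. WRKY12 stayed under the filter in both experiments, WRKY43 only with zeocin, and WRKY13, WRKY38 and WRKY55 only with UV-C. WRKY16, which joins the WRKY domain to a disease resistance receptor, shared its locus with a neighbour in both tables. WRKY19, which also carries receptor domains, and WRKY26 shared theirs in the zeocin table, so these values were not counted as the gene's own. Many loci hold only a stretch of the gene: less than 80% of the annotated exons was covered for 17 members with zeocin and for 31 with UV-C, and the share fell to 25.4% for WRKY12 and to 20.8% for WRKY55 in the respective tables.

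Libraries held 31185080 to 44536500 counts in the zeocin experiment and 27973871 to 37507136 with UV-C. Plastid loci took 30.6 to 35.8% of the counts in zeocin mock libraries and 34.3 to 37.3% after zeocin, and 44.2 to 46.8% in UV-C mock libraries against 37.0 to 40.5% after UV-C. Leaf markers summed to 17100 to 22900 CPM in zeocin mock libraries and 15400 to 20200 CPM after zeocin, where none of 4 was called. With UV-C they went from 18500 to 20100 CPM in mock libraries to 13800 to 14400 CPM, with 3 of 4 falling and 1 rising. Of 5 pollen markers only ACT4 had a locus, in the zeocin table, where it reached at most 0.172 CPM. Seed storage markers summed to at most 19.9 CPM in the zeocin experiment and had no locus with UV-C. All 7 root markers fell after zeocin, and their sum went from 229 to 293 CPM in mock libraries to 96.1 to 121 CPM. With UV-C 2 of the 7 fell. The part of these shifts in the WRKY values was not tested, and in whole seedlings fewer cells of a type and less RNA per cell cannot be told apart.

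After 3 h of zeocin, 16 of the 50 WRKY genes tested rose and 6 fell, and the changes called in these 22 ranged from a log2 change of 0.23 in size upward. The risers were led by WRKY50 and WRKY30 and included WRKY25 and WRKY33, regulators of defence and heat tolerance, together with WRKY44, WRKY46, WRKY48, WRKY75, WRKY23 and WRKY28. These 10 rose at least 2-fold, and no member fell that far. The 44.0% of WRKY genes called compares with 27.0% of all 19447 loci tested. Rises made up 32.0% of WRKY genes against 15.0% of all loci, and falls 12.0% of each. Rises of 1 or more on the log2 scale were found in 10 of 50 WRKY genes and in 5.16% of all loci, and falls of that size in 0 of 50 and in 2.09%. The median log2 change was 0.39 over the WRKY genes and -0.02 over all loci. All calls use edgeR's quasi-likelihood test with Benjamini-Hochberg adjustment over all loci, at an adjusted p below 0.05, two-sided.

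**Figure D1:**
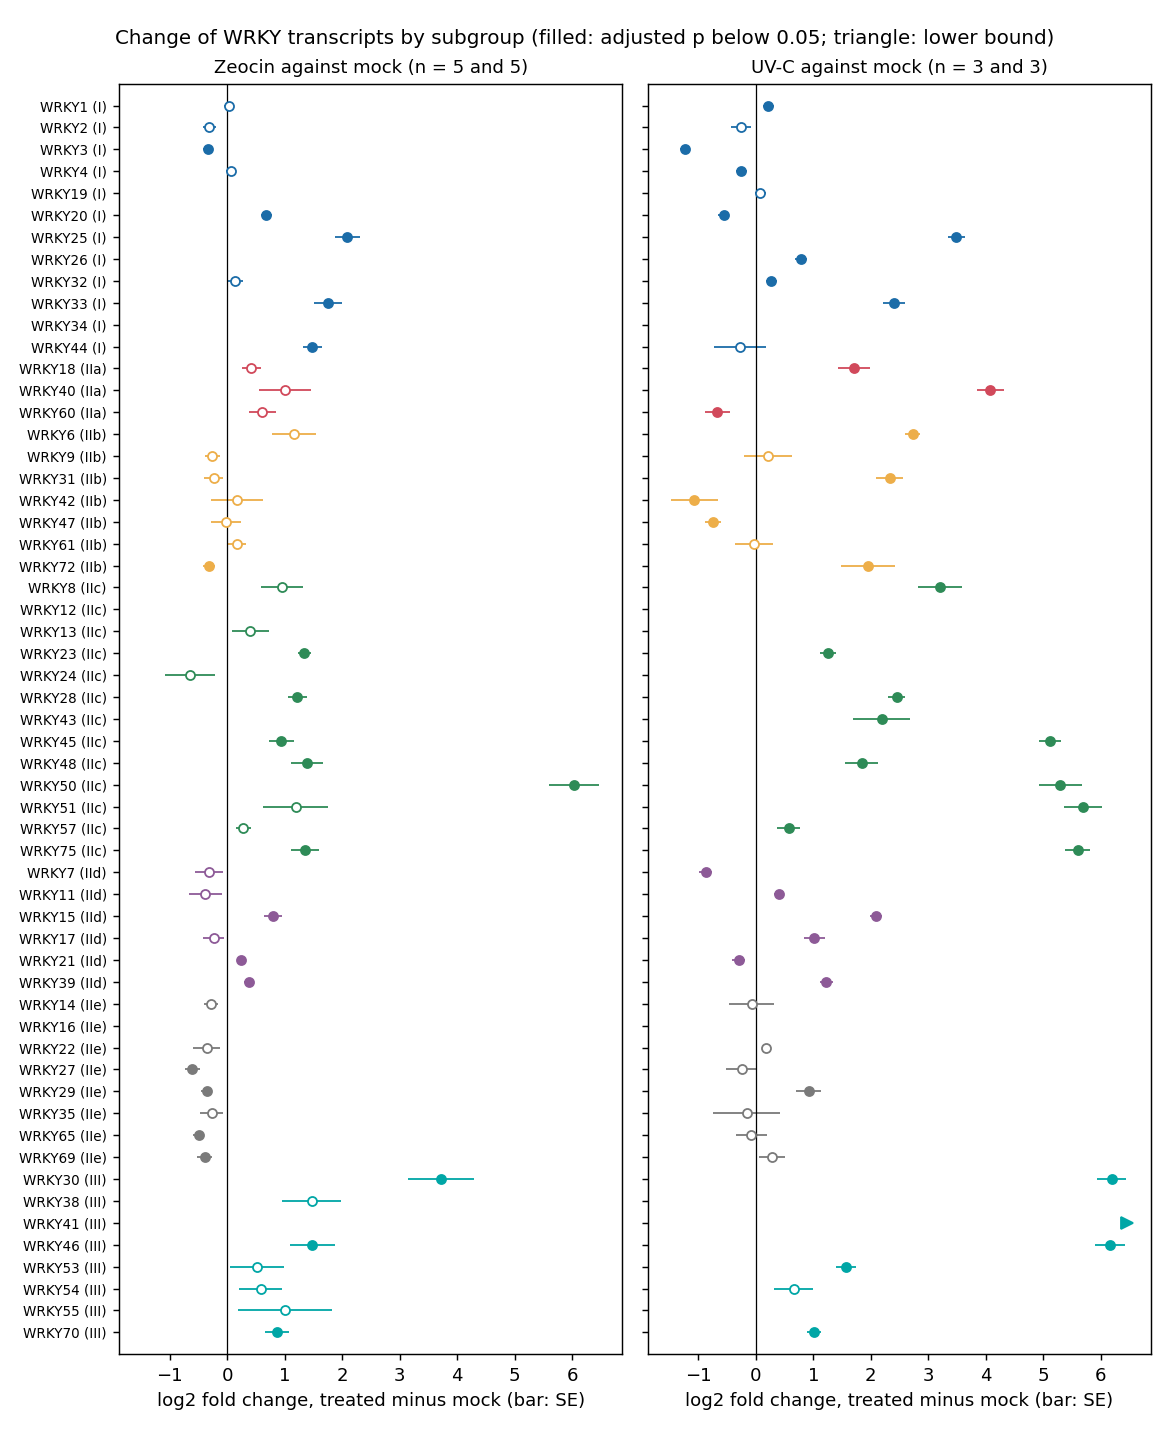
Log2 fold change of each WRKY gene with a locus of its own that passed the filter, treated minus mock, after zeocin (left, 5 against 5 libraries) and after UV-C (right, 3 against 3), with bars for the standard error and colours for the subgroup. Filled points passed the test, and the triangle for WRKY41 after UV-C is a lower bound. Every member of subgroup IIe tested lies left of 0 after zeocin, and every member of subgroup IIc tested lies right of 0 after UV-C. A gene scarce in mock libraries passes the filter if it rises enough, but not if it stays scarce.

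WRKY50 (AT5G26170), a group IIc factor that acts in salicylic acid and jasmonate signalling, had the largest change after zeocin. Its locus lies on the minus strand of chromosome 5 from 9147016. In the 5 mock libraries WRKY50 stood at 0.201, 0.221, 0.911, 0.0471 and 0.323 CPM, and in the 5 zeocin libraries at 16.2, 28.0, 26.7, 19.6 and 23.5 CPM. The lowest zeocin library was thus well above the highest mock library. The log2 change was 6.03 ± 0.44 (SE, n = 5 and 5, adjusted p = 4.89e-06), a 65.4-fold rise. Mock libraries alone would not have carried WRKY50 past the filter on low counts, so it was tested because its zeocin libraries were high. WRKY30 (AT5G24110), a group III gene induced by oxidative stress and pathogens, was next. WRKY30 read 0.344, 0.853, 0.542, 0.495 and 0.300 CPM in mock libraries and 2.49, 14.6, 8.05, 2.61 and 5.25 CPM after zeocin. The groups did not overlap, but the treated libraries spread widely, with the second at the top. Its log2 change was 3.72 ± 0.57 (adjusted p = 0.000862).

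WRKY33 (AT2G38470), the group I factor that switches on camalexin synthesis and is phosphorylated by MPK3 and MPK6, started from a far higher level. It measured 53.4, 115, 104, 69.3 and 58.4 CPM in mock libraries and 195, 353, 265, 250 and 281 CPM after zeocin. Every treated library exceeded every mock library, by a log2 change of 1.75 ± 0.24 (adjusted p = 0.0003). WRKY25 (AT2G30250), a close relative that acts with WRKY33 in heat tolerance, gave 27.7, 67.6, 63.1, 54.0 and 43.0 CPM in mock libraries and 190, 248, 221, 214 and 214 CPM with zeocin. No treated library came near the mock range, and the log2 change was 2.09 ± 0.21 (adjusted p = 1.85e-05). Per kilobase of locus, WRKY33 and WRKY25 were the most abundant members after zeocin, at 144 and 130 CPM per kb. Among mock libraries that place belonged to WRKY11, at 62.7 CPM per kb.

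The promoters of WRKY33, WRKY30 and WRKY50 are shown because the first and second carry the most W-boxes among the 57 genes and the last had the largest zeocin change. Each is the 300 bases before the annotated start, read 5′ to 3′ on the gene's strand from the RefSeq copy of the genome (TAIR10.1). They lie at chr2:16107935-16108234 (plus strand) for WRKY33, chr5:8154711-8155010 (minus strand) for WRKY30 and chr5:9148392-9148691 (minus strand) for WRKY50. Capitals mark W-boxes, searched as TTGACC and TTGACT on both strands, and in WRKY50 also 2 copies of CTTNNNNNNNAAG, the element bound by SOG1, the factor at the head of the plant DNA damage response.
WRKY33: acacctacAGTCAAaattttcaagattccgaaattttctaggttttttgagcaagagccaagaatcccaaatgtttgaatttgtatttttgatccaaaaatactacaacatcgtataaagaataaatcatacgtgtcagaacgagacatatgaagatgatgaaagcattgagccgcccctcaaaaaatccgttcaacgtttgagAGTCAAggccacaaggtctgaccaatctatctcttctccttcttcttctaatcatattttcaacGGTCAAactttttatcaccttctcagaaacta
WRKY30: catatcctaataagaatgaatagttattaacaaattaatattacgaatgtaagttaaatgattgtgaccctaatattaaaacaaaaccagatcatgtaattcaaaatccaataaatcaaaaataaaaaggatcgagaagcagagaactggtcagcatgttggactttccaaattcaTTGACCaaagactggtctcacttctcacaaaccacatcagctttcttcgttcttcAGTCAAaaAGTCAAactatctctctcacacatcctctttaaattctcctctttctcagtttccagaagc
WRKY50: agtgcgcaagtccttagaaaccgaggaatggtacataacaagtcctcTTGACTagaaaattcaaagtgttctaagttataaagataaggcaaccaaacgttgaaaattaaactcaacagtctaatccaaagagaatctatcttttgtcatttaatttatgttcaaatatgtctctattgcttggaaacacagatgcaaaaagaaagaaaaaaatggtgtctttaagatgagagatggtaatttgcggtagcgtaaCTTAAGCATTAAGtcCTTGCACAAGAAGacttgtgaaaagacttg
In WRKY33 the W-boxes begin 292, 96 and 32 bases before the start, and in WRKY30 at 124, 69 and 61 bases. WRKY50 has a single W-box at 253 bases, while its SOG1 elements begin 45 and 30 bases before the start. Such a match is a run of letters, and binding was not measured.

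Other group IIc members rose by less. WRKY48 (AT5G49520), which limits resistance to bacteria, read 10, 21.6, 27.4, 22.0 and 13.3 CPM in mock libraries and 33.5, 59.4, 57.5, 42.2 and 54.2 CPM after zeocin. No treated library fell into the mock range, and the log2 change was 1.39 ± 0.28 (adjusted p = 0.00457). WRKY75 (AT5G13080), known from phosphate starvation and senescence, was lower in abundance, at 1.09, 1.52, 1.06, 0.990 and 1.29 CPM in mock libraries and 2.11, 2.78, 4.87, 2.25 and 3.09 CPM with zeocin. Its groups were again apart, with the third treated library highest, and the log2 change was 1.35 ± 0.25 (adjusted p = 0.000862). WRKY23 (AT2G47260), an auxin-responsive gene of embryo and root development, was the steadiest of these risers. Its mock libraries lay at 3.36, 3.13, 3.25, 3.54 and 3.30 CPM and its zeocin libraries at 8.79, 8.95, 8.83, 7.31 and 8.15 CPM. The distance between groups was many times the spread within either, and the log2 change was 1.34 ± 0.11 (adjusted p = 4.57e-07). WRKY28 (AT4G18170), an activator of salicylic acid synthesis, went from 3.79 ± 0.713 to 8.80 ± 1.66 CPM (SD, n = 5 each), with no overlap and a log2 change of 1.22 ± 0.16 (adjusted p = 6.32e-05). WRKY45 (AT3G01970), which promotes phosphate uptake, rose by 0.94 ± 0.22 on the log2 scale (adjusted p = 0.00702), although its groups overlapped.

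In group III, WRKY46 (AT2G46400), which acts in basal resistance and drought responses, gave 1.21, 4.27, 7.39, 3.32 and 4.06 CPM in mock libraries and 7.40, 11.5, 14.2, 8.60 and 15.1 CPM after zeocin. The highest mock library nearly reached the lowest treated one, and the log2 change was 1.48 ± 0.39 (adjusted p = 0.0192). WRKY70 (AT3G56400), which favours salicylic acid over jasmonate responses, stood at 23.3, 28.5, 21.3, 19.7 and 33.9 CPM in mock libraries and 30.8, 55.6, 55.4, 33.5 and 55.0 CPM with zeocin. The fifth mock library lay above 2 of the treated libraries, and the log2 change of 0.86 ± 0.21 passed the test (adjusted p = 0.0112). WRKY53 (AT4G23810), a promoter of leaf senescence, did not pass it (log2 change 0.51 ± 0.47, adjusted p = 0.476), with 2.53 to 14.7 CPM in mock libraries and 4.71 to 17.8 CPM after zeocin. All 7 group III members tested had a positive log2 change, from 0.51 to 3.72, and 3 passed the test.

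**Figure D2:**
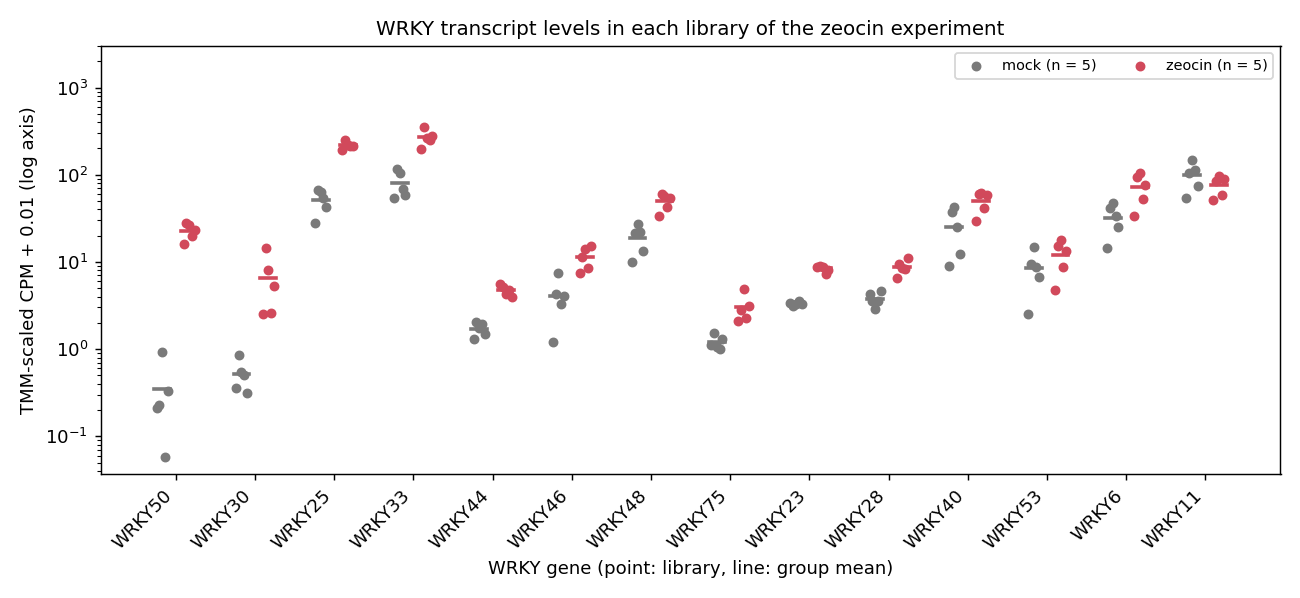
CPM (plus 0.01, log axis) of 14 WRKY genes in each of the 5 mock (grey) and 5 zeocin (red) libraries, with a line at each group mean. The groups are apart for the 10 members on the left, from WRKY50 to WRKY28, and overlap for WRKY40, WRKY53, WRKY6 and WRKY11.

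WRKY44 (AT2G37260), also called TTG2 and known for trichomes and the seed coat, belongs to group I. It read 1.29, 2.02, 1.72, 1.93 and 1.48 CPM in mock libraries and 5.61, 5.11, 4.26, 4.73 and 3.95 CPM after zeocin. The groups were clearly apart, with a log2 change of 1.48 ± 0.17 (adjusted p = 1.44e-05). WRKY20 of the same group rose by 0.68 ± 0.09 (adjusted p = 5.36e-05), from 29.7 ± 3.65 to 47.6 ± 3.02 CPM, without overlap. In subgroup IId, whose members bind calmodulin, WRKY15 (AT2G23320), which tunes growth and oxidative stress responses, rose from 33.2, 53.8, 57.1, 48.1 and 40.9 CPM to 60.4, 90.7, 82.7, 75.3 and 98.0 CPM. All treated libraries were above all mock libraries, with a log2 change of 0.80 ± 0.16 (adjusted p = 0.00202). WRKY39 rose by 0.38 ± 0.09 (adjusted p = 0.00576), and WRKY21 by 0.23 ± 0.07 (adjusted p = 0.0249). The WRKY21 call was lost without mock replicate 3 or without zeocin replicate 2, at an adjusted p of 0.0558 and 0.0665.

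Falls after zeocin gathered in subgroup IIe, where 4 of the 7 members tested fell, none rose, and log2 changes ran from -0.61 to -0.27. WRKY29 (AT4G23550), which acts with WRKY22 downstream of the flagellin receptor, read 22.2, 23.4, 21.2, 22.4 and 25.6 CPM in mock libraries and 14.7, 19.8, 18.0, 19.4 and 17.5 CPM with zeocin. Each treated library was below each mock library, by a log2 change of -0.36 ± 0.09 (adjusted p = 0.0106). WRKY65 fell by 0.50 on the log2 scale (SE 0.09, adjusted p = 0.000914) and WRKY27, which shapes bacterial wilt symptoms, fell by 0.61 (SE 0.13, adjusted p = 0.0025). WRKY69 fell by 0.39 (SE 0.13, adjusted p = 0.0425), a call that was lost when any of 7 single libraries was left out, at an adjusted p of 0.0507 to 0.103. WRKY22 itself was not called (log2 change -0.36 ± 0.24, adjusted p = 0.31), with 10.4 to 28.2 CPM in mock libraries and 10.7 to 19.3 CPM with zeocin. Of the 10 fits that each left out 1 library, WRKY22 was called only in the fit without mock replicate 1. That was its lowest mock library, and the log2 change there was -0.53 (adjusted p = 0.0373). Outside IIe, WRKY3 (AT2G03340), a group I factor in resistance to fungi that kill their host tissue, fell by 0.34 (SE 0.08, adjusted p = 0.00694) from 22.7 ± 1.31 to 17.9 ± 1.48 CPM, without overlap. WRKY72 of subgroup IIb fell by 0.32 (SE 0.10, adjusted p = 0.0235), a call lost in 4 of the 10 fits that each left out 1 library.

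All treated libraries stood above all mock libraries for 14 of the 50 members and below them for 3, against 11.5% and 8.13% of all loci. WRKY70 and WRKY45 were the called risers whose groups overlapped.

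Subgroup IIa is formed by WRKY18, WRKY40 and WRKY60, which bind each other and act in defence and abscisic acid signalling. It had no call with zeocin in the edgeR fit used here, which has no replicate block. With a replicate block edgeR called WRKY18, WRKY40 and WRKY60, at an adjusted p of 0.0301, 0.0491 and 0.00494. WRKY40 read 8.96, 37.7, 42.4, 25.2 and 12.2 CPM in mock libraries and 29.6, 60.6, 61.4, 41.9 and 58.9 CPM after zeocin. Libraries of both groups spread over a wide range and overlapped, and the log2 change was 1.0 ± 0.45 (adjusted p = 0.138). WRKY18 had a log2 change of 0.42 ± 0.16 (adjusted p = 0.0631), with 23.2 to 32.6 CPM in mock libraries and 25.3 to 43.6 CPM after zeocin. WRKY60 had one of 0.61 ± 0.23 (adjusted p = 0.0636), with 2.99 to 7.09 CPM and 5.95 to 11.3 CPM. WRKY6 (AT1G62300), a subgroup IIb factor in senescence and phosphate responses, came as close to a call as WRKY38, at the same adjusted p. It gave 14.4, 41.2, 46.9, 33.3 and 24.9 CPM in mock libraries and 33.9, 93.0, 104, 52.3 and 76.3 CPM with zeocin, with a log2 change of 1.16 ± 0.39 (adjusted p = 0.0546). When zeocin replicate 1 was left out, WRKY6, WRKY18 and WRKY60 each passed the test, at an adjusted p of 0.0239, 0.00606 and 0.0256. That library was the lowest treated one for each of them. Mock replicate 1 was the lowest mock library for each, and none passed without it. Of the 10 fits that each left out 1 library, WRKY6 and WRKY18 passed in 2 each and WRKY60 in 1. DESeq2 called WRKY6, WRKY18 and WRKY60 over the full set of libraries, at an adjusted p of 0.0148, 0.0392 and 0.0306. WRKY11 and WRKY17, a related pair in subgroup IId that dampens resistance to bacteria, had log2 changes of -0.38 ± 0.28 (adjusted p = 0.364) and -0.24 ± 0.19 (adjusted p = 0.379). WRKY11 lay between 53.7 and 148 CPM in mock libraries and between 51.1 and 96.0 CPM with zeocin, and WRKY17 between 26.9 and 53.7 and between 25.8 and 42.5 CPM. WRKY51 (AT5G64810), which acts with WRKY50 in jasmonate signalling, was scarce, at 0.0574 to 0.969 CPM in mock libraries and 0.397 to 2.09 CPM with zeocin (log2 change 1.19 ± 0.57, adjusted p = 0.145).

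The zeocin experiment had libraries that stood low for this family. Among the 50 members tested, mock replicate 1 was the lowest of its group in 23 and zeocin replicate 1 in 29, which is 46.0% and 58.0% of members against 26.0% and 28.7% of all loci. In 18 members, 36.0% of those tested against 12.0% of all loci, both libraries numbered 1 were the lowest. Without these libraries 19 members rose and 5 fell. Of members not called, WRKY2, WRKY7, WRKY8, WRKY14, WRKY38 and WRKY57 passed the test in 1 to 3 of the 10 fits that each left out 1 library.

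After UV-C, 30 of 50 WRKY genes tested rose and 8 fell. WRKY30, WRKY46, WRKY51, WRKY75, WRKY50 and WRKY45 came up by more than 30-fold from a mock mean under 1 CPM. Other members as scarce in mock seedlings rose less, were not called or, as WRKY42, fell. WRKY41 appeared in all 3 UV-C libraries after 0 counts in all 3 mock libraries. WRKY40 and WRKY25 rose more than 10-fold to become, with WRKY33, the members with the highest CPM. The call rate was high throughout: 76.0% of WRKY genes were called against 64.4% of all 19587 loci tested. Rises made up 60.0% of WRKY genes against 33.6% of all loci, and falls 16.0% against 30.9%. Rises of 1 or more on the log2 scale were seen in 24 of 50 members against 18.2% of all loci, and falls of that size in 2 of 50 against 10.1%. The median log2 change was 0.86 in the family and 0.00 over all loci. Genes too scarce in mock libraries to pass the filter entered the shares above only through their UV-C libraries, in the family and over all loci alike.

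WRKY30 stood at 0.364, 0.403 and 1.03 CPM in the mock libraries and at 41.3, 48.5 and 42.0 CPM after UV-C. The 3 treated libraries lay close together and far above mock, with a log2 change of 6.19 ± 0.25 (n = 3 and 3, adjusted p = 2.3e-07). WRKY46 gave 0.624, 0.173 and 0.753 CPM in mock libraries and 34.9, 38.2 and 40.8 CPM with UV-C. Again no value lay between the groups, and the log2 change was 6.17 ± 0.26 (adjusted p = 2.04e-07). WRKY53, of the same group III, was already present in mock seedlings, at 8.14, 8.57 and 12.9 CPM, and reached 26.4, 30.9 and 30.3 CPM. Its log2 change was 1.57 ± 0.17 (adjusted p = 5.86e-05) and the groups were apart. WRKY70 went from 10.5, 7.71 and 10.9 CPM to 18.8, 19.4 and 20.3 CPM, a log2 change of 1.01 ± 0.12 (adjusted p = 4.91e-05). WRKY41 (AT4G11070), known from seed dormancy and resistance to bacteria, had 211 counts in the UV-C libraries, at 2.04, 2.82 and 2.92 CPM. Set against a floor of 3 counts over the mock group, WRKY41 was at least 88.1-fold higher after UV-C. Its locus covers 58.3% of the gene's exons in a single exon. Of the 6 group III members tested, 5 rose, and WRKY54 had a log2 change of 0.66 ± 0.34 (adjusted p = 0.114). WRKY41 passed the filter only through its UV-C libraries. WRKY46, whose second mock library stood at 0.173 CPM, could not have passed on its mock libraries alone. WRKY38 and WRKY55 stayed under the filter.

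All 10 members of subgroup IIc tested with UV-C rose, at log2 changes of 0.57 to 5.70. That all rose is partly set by the filter on low counts. WRKY50, WRKY51, WRKY8 and WRKY43 had 11, 13, 13 and 16 counts over the 3 mock libraries and passed it through their UV-C libraries. WRKY75, whose second mock library stood at 0.288 CPM, also needed UV-C libraries to pass. WRKY12 and WRKY13, with 11 and 13 counts in mock libraries and 6 and 17 after UV-C, were not tested. WRKY51, which lowers jasmonate responses, went from 0.104, 0.0575 and 0.195 CPM to 5.98, 5.15 and 8.07 CPM. All UV-C libraries were far above mock, by a log2 change of 5.70 ± 0.33 (adjusted p = 1.72e-07). WRKY75 read 0.780, 0.288 and 0.809 CPM in mock libraries and 33.7, 29.7 and 29.3 CPM with UV-C, with no overlap and a log2 change of 5.60 ± 0.22 (adjusted p = 4.67e-08). WRKY50 moved from 0.208, 0.0575 and 0.0279 CPM to 3.90, 3.93 and 4.49 CPM. The first mock library was the highest of its group but stayed far under the UV-C libraries, and the log2 change was 5.30 ± 0.38 (adjusted p = 8.43e-07). WRKY45 had 1.27, 0.547 and 0.837 CPM in mock libraries and 31.3, 29.3 and 33.4 CPM with UV-C, a log2 change of 5.12 ± 0.19 (adjusted p = 2.63e-08). WRKY8 (AT5G46350), which acts in salt and virus responses, stayed rare, at 0.156, 0.0575 and 0.139 CPM in mock libraries and 1.06, 1.36 and 0.960 CPM after UV-C. Its groups did not overlap, and the log2 change was 3.20 ± 0.38 (adjusted p = 3.89e-05). WRKY28, WRKY43, WRKY48, WRKY23 and WRKY57 rose by 2.45, 2.19, 1.84, 1.26 and 0.57 on the log2 scale. The call for WRKY57, a drought tolerance gene, was lost in 4 of the 6 fits that each left out 1 library, at an adjusted p of 0.0533 to 0.0882.

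**Figure D3:**
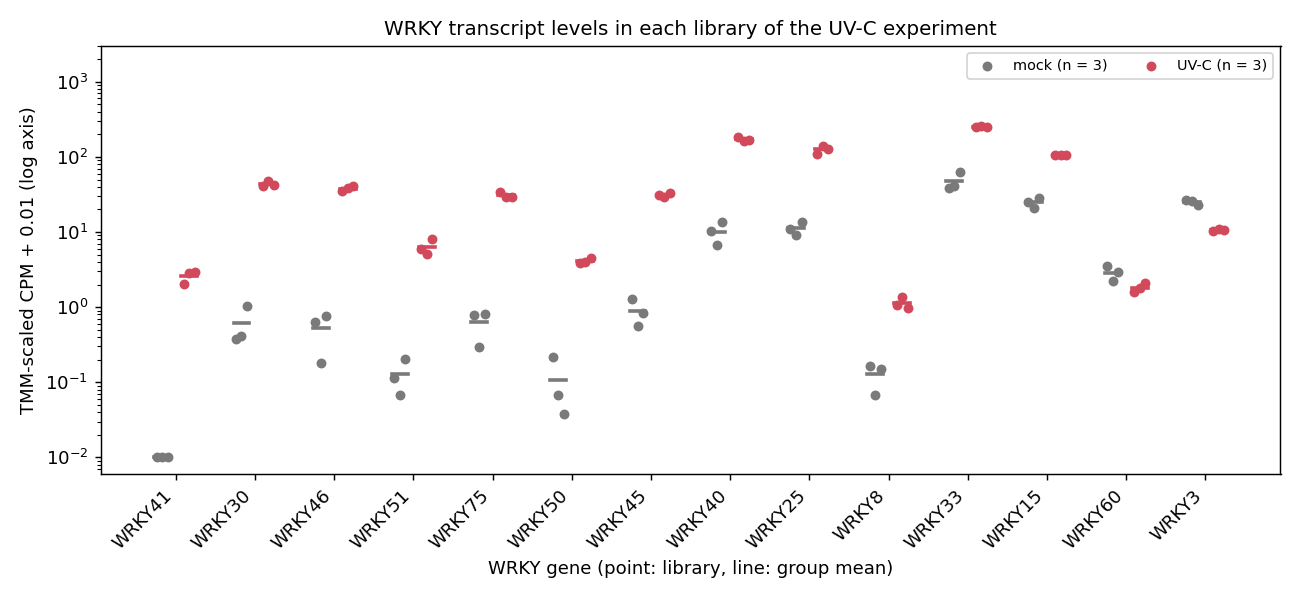
CPM (plus 0.01, log axis) of 14 WRKY genes in each of the 3 mock (grey) and 3 UV-C (red) libraries, with a line at each group mean. UV-C libraries lie above mock for the 12 members on the left, from WRKY41 to WRKY15, and below mock for WRKY60 and WRKY3; WRKY41 had 0 counts in mock libraries.

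Subgroup IIa split after UV-C. WRKY40 rose from 10.3, 6.70 and 13.4 CPM to 182, 164 and 169 CPM, far beyond the mock range, with a log2 change of 4.08 ± 0.23 (adjusted p = 4.49e-06). WRKY18 rose from 8.43, 6.10 and 14.8 CPM to 31.2, 31.1 and 33.5 CPM (log2 change 1.71 ± 0.28, adjusted p = 0.00142). The third mock library was the highest for both. WRKY60 fell, from 3.54, 2.19 and 2.90 CPM to 1.59, 1.77 and 2.07 CPM, with groups that just failed to meet (log2 change -0.67 ± 0.22, adjusted p = 0.02). The WRKY60 call was lost without mock replicate 1, UV-C replicate 1 or UV-C replicate 2, at an adjusted p of 0.0592 to 0.0854. In subgroup IIb, WRKY6 went from 15.3, 10.8 and 15.3 CPM to 88.9, 91.6 and 93.7 CPM, with tightly grouped UV-C libraries and a log2 change of 2.73 ± 0.13 (adjusted p = 8.38e-08). WRKY31 and WRKY72 rose by 2.33 ± 0.23 and 1.96 ± 0.47 (adjusted p = 9.72e-06 and 0.00835). WRKY47 fell by 0.75 (SE 0.14, adjusted p = 0.00113), and WRKY42, which represses the phosphate exporter PHO1, fell by 1.07 (SE 0.41, adjusted p = 0.0427) at under 0.5 CPM in every library. The WRKY42 call was lost in all 6 fits that each left out 1 library.

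Group I held abundant risers and 3 of the 8 falls. WRKY25 read 11.1, 9.15 and 13.4 CPM in mock libraries and 110, 140 and 129 CPM with UV-C, clear of each other, with a log2 change of 3.49 ± 0.15 (adjusted p = 1.11e-07). WRKY33 read 38.0, 41.4 and 63.9 CPM and 248, 260 and 250 CPM. The third mock library was the highest of its group but far below the UV-C libraries, and the log2 change was 2.40 ± 0.19 (adjusted p = 2.51e-05). WRKY33 and WRKY40 were the most abundant members after UV-C per kilobase of locus, at 179 and 168 CPM per kb, and WRKY33 also led in mock libraries, at 33.8 CPM per kb. WRKY26, which acts with WRKY25 and WRKY33 in heat tolerance, rose by 0.79 ± 0.10 (adjusted p = 4.58e-05). WRKY1 and WRKY32 rose by 0.22 and 0.27, and each call was lost in 5 of the 6 fits that left out 1 library. WRKY3 had the largest fall of a member above 1 CPM, from 26.7, 26.1 and 22.9 CPM to 10.3, 11.1 and 10.8 CPM. Its groups were far apart relative to their spread (log2 change -1.23 ± 0.09, adjusted p = 8.71e-07). WRKY20 fell by 0.56 (SE 0.09, adjusted p = 0.00028) and WRKY4, which acts with WRKY3 against fungi, by 0.25 (SE 0.09, adjusted p = 0.0406). The WRKY4 call was lost in 4 of the 6 fits that left out 1 library. WRKY44 was not called, at 0.416, 0.575 and 0.502 CPM in mock libraries and 0.568, 0.139 and 0.538 CPM with UV-C (log2 change -0.28 ± 0.45, adjusted p = 0.609). Its UV-C locus covers only 29.8% of the gene's exons, and the second UV-C library stood apart at the bottom.

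In subgroup IId, WRKY15 rose from 25.4, 20.9 and 28.4 CPM to 106, 107 and 105 CPM, with UV-C libraries that hardly differed (log2 change 2.09 ± 0.10, adjusted p = 6.36e-08). WRKY39 rose by 1.23 ± 0.12 (adjusted p = 1.05e-05). WRKY17 rose from 7.62, 5.12 and 8.06 CPM to 12.8, 12.7 and 16.7 CPM (log2 change 1.02 ± 0.18, adjusted p = 0.000984) and WRKY11 from 28.0, 27.2 and 28.2 CPM to 35.6, 40.1 and 34.0 CPM (log2 change 0.40 ± 0.08, adjusted p = 0.0014). Neither overlapped between groups. WRKY7 fell by 0.87 (SE 0.11, adjusted p = 7.69e-05) and WRKY21 by 0.30 (SE 0.12, adjusted p = 0.0413), the latter lost in 3 of the 6 fits that left out 1 library. Subgroup IIe had 1 call among 7 members tested. That member, WRKY29, rose from 3.80, 4.26 and 4.21 CPM to 4.92, 9.25 and 9.03 CPM, the first UV-C library standing near mock (log2 change 0.92 ± 0.22, adjusted p = 0.00582). WRKY22 lay at 11.9, 12.4 and 12.7 CPM in mock libraries and at 13.5, 13.4 and 14.8 CPM with UV-C. These groups were apart, yet the log2 change of 0.18 ± 0.08 missed the threshold (adjusted p = 0.0886). Counting all members tested, UV-C libraries stood above mock in 31 and below in 8, against 36.2% and 34.3% of all loci.

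Library differences touched the UV-C experiment as well. Mock replicate 2 was the lowest of its group in 30 of 50 members and UV-C replicate 1 in 29, which is 60.0% and 58.0% against 35.1% and 35.4% of all loci. WRKY54 was called only without UV-C replicate 1, at an adjusted p of 0.043.

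The zeocin and UV-C changes were set against each other over 46 WRKY genes tested in both experiments. Of these, 13 rose in both: WRKY15, WRKY23, WRKY25, WRKY28, WRKY30, WRKY33, WRKY39, WRKY45, WRKY46, WRKY48, WRKY50, WRKY70 and WRKY75. A further 12 rose with UV-C without a call for zeocin, 7 were called in neither, and WRKY3 was the member that fell in both. WRKY29 and WRKY72 fell with zeocin and rose with UV-C, whereas WRKY20 and WRKY21 rose with zeocin and fell with UV-C. Across the 46 members the log2 changes had a Pearson correlation of 0.68 and a Spearman correlation of 0.628. These are descriptions, because members are not replicates and share their libraries. No such joint counts or correlations are given here for all genes, so they show nothing particular to the family.

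The difference between both responses was tested itself, as the interaction in a joint fit of all 16 libraries over genes with a locus of their own in both tables. It was called in 24 of 50 WRKY genes, or 48.0%, against 47.2% of all 17183 genes tested. The UV-C change was the higher one in 18 of these members and the zeocin change in 6, against 23.4% and 23.8% of all genes. The agent, its dose and the exposure change together between the experiments, and so do the assembly, the group size and the mock libraries. Plastid loci took 30.6 to 35.8% of the counts in zeocin mock libraries and 44.2 to 46.8% in UV-C mock libraries. The parts of these cannot be told apart. WRKY46 had the largest difference called: its zeocin change less its UV-C change came to -4.67 ± 0.67 on the log2 scale (adjusted p = 6.14e-05). WRKY51 followed at -4.49 ± 0.93 (adjusted p = 0.000981), WRKY75 at -4.22 ± 0.39 (adjusted p = 2.64e-07), WRKY45 at -4.16 ± 0.39 (adjusted p = 4.57e-07) and WRKY40 at -3.06 ± 0.63 (adjusted p = 0.00137). Differences in the same direction were also called for WRKY31 (-2.54 ± 0.3), WRKY72 (-2.24 ± 0.39) and WRKY8 (-2.24 ± 0.71). Smaller ones were called for, among others, WRKY6 (-1.54 ± 0.52), WRKY25 (-1.37 ± 0.31), WRKY18 (-1.26 ± 0.32), WRKY15 (-1.25 ± 0.23), WRKY29 (-1.24 ± 0.22) and WRKY17 (-1.23 ± 0.31). The call for WRKY30, at -2.43 ± 0.90 (adjusted p = 0.0391), was lost in 9 of the 16 fits that each left out 1 library, at an adjusted p of 0.0528 to 0.0969. Those for WRKY6 and WRKY8 were lost without UV-C mock replicate 2, at an adjusted p of 0.0726 and 0.057, and that for WRKY69 (-0.64 ± 0.25, adjusted p = 0.0453) was lost in 11 of the 16 fits. The tables counted different parts of some of these genes. For WRKY46 the locus covered 92.7% of the exons with zeocin and 42.0% with UV-C. For WRKY8 it covered 93.7% and 44.5%, and for WRKY72 94.7% and 42.0%. For WRKY45 the shares were 58.2% and 59.6%, over stretches that overlap only in part. What this adds to the differences was not tested.

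**Figure D4:**
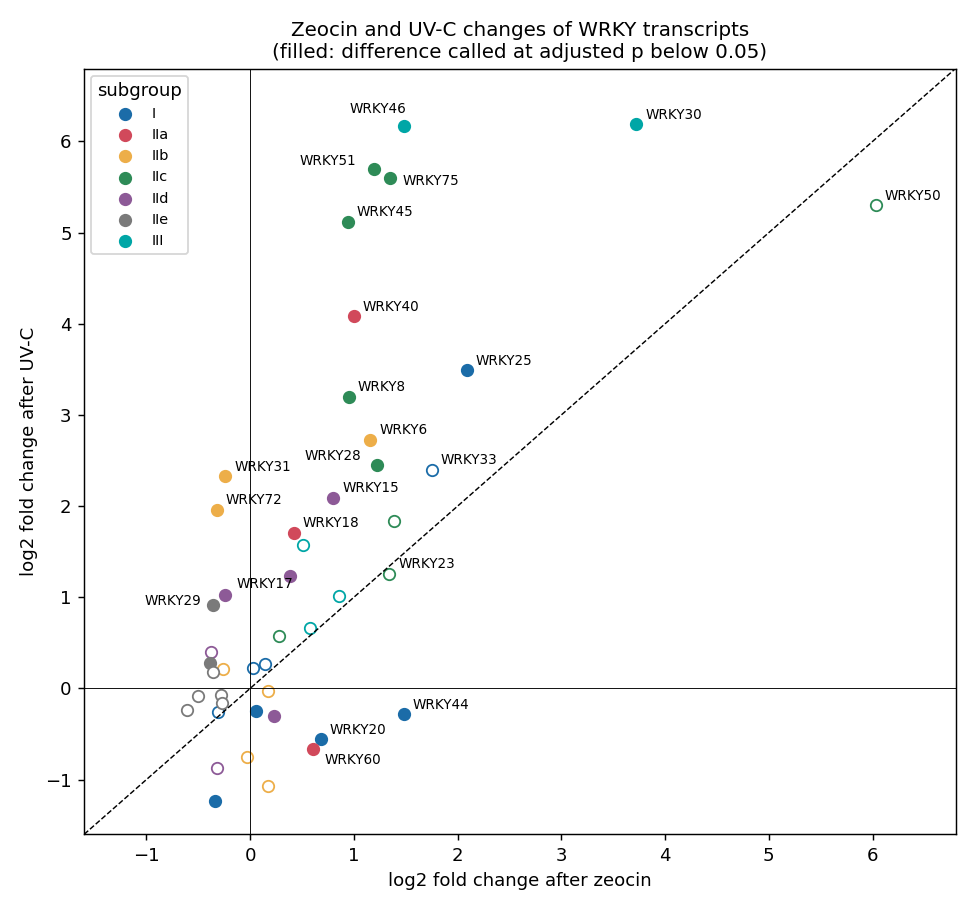
Log2 fold change after zeocin (x axis) and after UV-C (y axis) of the WRKY genes tested in both experiments, coloured by subgroup, with a dashed line where both are equal. Filled points have a difference called at an adjusted p below 0.05. WRKY46, WRKY51, WRKY75, WRKY45 and WRKY40 lie far above the line, and WRKY44, WRKY20 and WRKY60 below it.

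The zeocin change was the higher one for WRKY44 (1.80 ± 0.43, adjusted p = 0.00264), WRKY60 (1.31 ± 0.38, adjusted p = 0.0085) and WRKY20 (1.28 ± 0.14, adjusted p = 1.18e-06). It was also higher for WRKY3 (0.93 ± 0.12), WRKY21 (0.57 ± 0.12) and WRKY4 (0.34 ± 0.14), and the call for WRKY4 was lost in 11 of the 16 fits that left out 1 library. For WRKY44 the tables counted different parts of the gene, 87.8% of its exons with zeocin and 29.8% with UV-C. WRKY50, which led the zeocin response, showed no difference that passed the test (0.74 ± 1.03, adjusted p = 0.58), and its wide error leaves room for one. WRKY33 and WRKY23 were likewise not called (-0.63 ± 0.36, adjusted p = 0.162, and 0.12 ± 0.16, adjusted p = 0.575). WRKY48, WRKY53 and WRKY70 had differences of -0.43 ± 0.46, -1.03 ± 0.63 and -0.11 ± 0.30, none of them called.

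Loci on the opposite strand met WRKY exons in a few places. In the UV-C table an unannotated locus ran antisense to WRKY46 on the plus strand of chromosome 2 from 19043661 to 19043988, and its 250 exonic bases all lay within the last annotated exon of WRKY46. It had 0, 0 and 2 counts in mock libraries and 109, 97 and 109 counts with UV-C. The ratio of pooled counts, scaled for library size, was 211 with an exact 95% interval of 58.1 to 1750 that covers counting error only. The change passed the test (adjusted p = 3.08e-07). However, the locus passed the filter on low counts only through its UV-C libraries, so a call as a rise was close to set in advance. WRKY46 rose in the same libraries. The counted WRKY46 locus begins at 19044129 and holds 42.0% of the gene's exons, so both loci share 0 exonic bases. The antisense locus has an intron of 78 bases, shown with 10 bases on either side because its ends carry the GT and AG usual for an intron on the plus strand. It is read 5′ to 3′ on the plus strand at chr2:19043837-19043934 (TAIR10.1), within the coding sequence of WRKY46 on the other strand, and capitals mark the GT and AG at the intron's ends.
WRKY46 antisense intron: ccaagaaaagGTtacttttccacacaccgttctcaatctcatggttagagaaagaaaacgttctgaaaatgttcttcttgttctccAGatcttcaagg
Counting was strand-aware. The zeocin table had no such locus at WRKY46. Opposite WRKY53, AT4G23800 fell by 0.88 (SE 0.13, adjusted p = 0.000195) after zeocin and by 2.54 (SE 0.20, adjusted p = 1.33e-05) after UV-C, on the log2 scale. Opposite WRKY41, AT4G11080 fell by 1.46 (SE 0.22, adjusted p = 0.000325) after UV-C and was not called after zeocin. Opposite WRKY50, AT5G26160 was not called after zeocin (log2 change -0.27 ± 0.11, adjusted p = 0.0936). After UV-C, AT1G68160 opposite WRKY9 rose by 0.35 ± 0.13 (adjusted p = 0.0323) and AT4G26430, which meets WRKY34 over 2 bases, by 0.52 ± 0.14 (adjusted p = 0.00918). Loci opposite WRKY1 and WRKY34 with zeocin and opposite WRKY40 with UV-C were not called.

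W-boxes in the 300 bases before the start were counted in all members. At least 1 was found in 23 of the 57 WRKY genes, or 40.4%, against 32.3% of 27443 nuclear protein-coding genes. In WRKY25, WRKY45 and WRKY75 one lay within 15 bases of the start, although the windows of WRKY25 and WRKY45 overlap another gene. Members that rose after zeocin held one in 11 of 16 cases. For those that fell it was 2 of 6, and for those not called 6 of 28. With UV-C the counts were 17 of 30 for the risers, 2 of 8 for members that fell and 2 of 12 for those not called. At least 2 W-boxes were found in 9 of the 30 UV-C risers and in 7.91% of all genes, and among WRKY genes WRKY30 and WRKY33 alone had 3. The SOG1 element was present in 8 of the 57 members, or 14.0%, against 11.4% of all genes. With zeocin it was found in 2 of 16 risers, 1 of 6 members that fell and 4 of 28 not called. With UV-C the counts were 6 of 30, 0 of 8 and 1 of 12. WRKY17, which was not called after zeocin, carried 3 SOG1 elements and WRKY50 carried 2. The counts are descriptions without the share among all genes that rose or fell, and no sign of a bound factor was measured here.

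Genes around the WRKY factors were read from lists of their pathway. Among immune receptors and their close partners, 5 of 7 tested rose after zeocin and none fell, and 5 rose and 2 fell after UV-C. PEPR2, which senses damage peptides, rose by 0.66 ± 0.15 after zeocin and by 4.90 ± 0.11 after UV-C, whereas WAK2, a cell wall receptor, rose by 1.12 ± 0.11 and fell by 1.04 (SE 0.11). In the MAP kinase cascade, 7 of 11 rose after zeocin and 8 of 11 after UV-C, with none falling. MPK3 rose by 0.66 ± 0.12 and 1.14 ± 0.12, MPK11 by 1.96 ± 0.63 and 5.63 ± 0.21, MKK9 by 1.35 ± 0.10 and 1.83 ± 0.11, and MKK4, which activates MPK3 and MPK6, by 0.80 ± 0.10 and 2.60 ± 0.15. VQ proteins rose in 3 of 6 cases after zeocin and in 7 of 8 after UV-C, where 1 fell. JAV1, a jasmonate repressor that binds WRKY51, rose by 0.53 ± 0.18 and 4.82 ± 0.26, and SIB1, which binds WRKY33, by 4.48 ± 0.23 after UV-C with no call for zeocin. VQ29 had 0 counts in the UV-C mock libraries, passed the filter only through its UV-C libraries, and was at least 739-fold higher after UV-C. Of the known WRKY targets, 8 of 18 rose and 2 fell after zeocin, and 14 of 17 rose and 1 fell after UV-C. PAD3, the last enzyme of camalexin synthesis and a target of WRKY33, rose by 2.5 ± 0.56 after zeocin and 8.80 ± 0.25 after UV-C. PHT1;1, the phosphate transporter that WRKY45 activates, fell by 1.44 (SE 0.10) and 1.2 (SE 0.29), and it is itself one of the root markers that fell. The shares in these lists stand against the same backgrounds as above, 15.0% and 12.0% of loci for rises and falls with zeocin and 33.6% and 30.9% with UV-C.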

How the data were processed

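The 16 libraries keep the strand and were built from seedling RNA after removal of ribosomal RNA, per the labels' protocols. Trimming used Trim Galore 0.11.8, alignment used STAR 2.7.1a and the build was TAIR10, per the submitters' processing notes. Per the file headers, StringTie 2.1.5 assembled each experiment without an annotation, and the deposited values are raw counts per assembled locus from featureCounts 2.0.1, which used strand. Each experiment has a table of its own with other assembly options, so a gene may be counted over different stretches.

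Loci were matched to the RefSeq annotation of TAIR10.1. No nuclear locus passed a chromosome end, and 98.6% (zeocin) and 99.4% (UV-C) of inner exon boundaries were annotated ones. A gene shorter than 200 bases did not count as a second gene of a locus, and members in a locus shared with another gene were left out. The whole tables were fitted with edgeR 4.0.16 in R 4.3.3 (quasi-likelihood, robust, TMM, default filter on low counts), after tests on simulated data. CPM are TMM-scaled, and standard errors come from the test statistic. A group with 0 counts was set to a floor of 3. Intervals and floors cover counting error only. Subgroups follow the usual classification. Described in full are, in each experiment, up to 10 rises and 5 falls among calls of at least 1 log2 unit and 1 CPM, the 5 largest interactions and a list of well-studied members. The WRKY members, pathway lists and marker lists were chosen with earlier results of these data known. Alternatives were DESeq2 1.42.0, other scaling factors, no filter, a replicate block, a stricter cover of 80% and leaving out each library.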

Additional observations from a re-analysis of the deposited data

Results flagged for a closer look

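WRKY60 in the zeocin experiment had 1 mock library far from the others. It measured 2.99 CPM in mock replicate 1 and 5.94 to 7.09 CPM in the other 4, a gap of 0.719 of the group's range against Dixon's critical value of 0.71 for 5 libraries. Among the 50 groups of 5 examined this was the 1 that passed, and chance alone passes about 1 in 20 groups. The same library was the lowest of its group in 23 of the 50 WRKY genes tested.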

How the results depend on the processing

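The labels do not say that replicate numbers pair the libraries. Deviations of same-numbered libraries correlated between -0.0957 and 0.435 with zeocin and between -0.3 and 0.155 with UV-C. In the zeocin experiment the pairs numbered 1 and 3 correlated best, at 0.435 and 0.254, and the other 3 same-numbered pairs did not reach 0.1. Libraries with different numbers reached 0.205 with zeocin, and 0.358 with UV-C, above every same-numbered UV-C pair. A partial pairing thus remains possible with zeocin, and the correlations do not settle it. With the replicate block, 25 members rose after zeocin and 5 fell after UV-C; the added zeocin calls were WRKY6, WRKY8, WRKY18, WRKY38, WRKY40, WRKY51, WRKY53, WRKY54 and WRKY60, at an adjusted p of 6.86e-06 (WRKY6) to 0.0491 (WRKY40) from edgeR. Limited to loci that cover at least 80% of the gene, which leaves 35, 23 and 19 members tested, 10 rose and 14 in all were called after zeocin, 16 rose, 4 fell and 20 were called after UV-C, and the interaction was called in 12 members, 2 higher after zeocin and 10 higher after UV-C. With DESeq2, 5 members fell after UV-C. Leaving out 1 library at a time gave 15 to 21 rises, 4 to 7 falls and 20 to 27 calls after zeocin, 27 to 30 rises, 4 to 7 falls and 32 to 35 calls after UV-C, and 5 to 6 interactions higher after zeocin, 14 to 19 higher after UV-C and 20 to 25 in all. Without both zeocin-experiment libraries numbered 1, an alternative chosen after seeing the data, 19 members rose and 5 fell after zeocin. The cause of these shifts was not tested beyond the fewer members or libraries used. Some values that were not called turned sign. WRKY44 after UV-C was 0.15 without UV-C replicate 2 (range -0.57 to 0.15). The interaction of WRKY50 was -0.45 without UV-C mock replicate 1 (range -0.45 to 1.55), and that of WRKY70 was 0.03 without both libraries numbered 1 and ran from -0.19 to 0.02, passing 0.01 and 0.0, when 1 was left out. Upper quartile scaling moved the median of all loci by -0.06 and -0.11 log2 units and the share of rises among all calls from 55.6 to 44.9% (zeocin) and from 52.1 to 44.8% (UV-C). Members under about 1 CPM rest on few counts, and their levels are the least certain.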
